A study of Mus musculus with 7 samples.

Results

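The nuclear genes for subunits of the mitochondrial respiratory chain and of ATP synthase were described in mouse intestinal epithelial cells after deletion of Mob1a and Mob1b. Members were the genes on the array whose symbol begins with Nduf, Uqcr, Cox4i, Cox5, Cox6, Cox7, Cox8 or Atp5, with Sdha to Sdhd, and each gene was represented by its brightest probe. The rule gave 93 of the 20887 named genes on the array, and 89 of them exceeded background clearly on 2 or more of the 7 arrays and were tested. Complex I had 37 measured members of 38, complex II had 4 of 4, complex III had 8 of 8, complex IV had 15 of 18 and complex V, the ATP synthase, had 17 of 17. Complexes were assigned by symbol, so Ndufa4 is counted in complex I throughout, although its product is now known to belong to complex IV. The Nduf prefix also took in 8 Ndufaf genes, whose products assemble complex I and are not part of it, and all 8 were measured. Ndufa4l2 was well above background on 1 array, Cox7b2, Cox8b and Cox8c on 0 arrays, and these 4 genes were not tested.

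The cells came from the proximal intestine of male mice, which had been crossed back to C57BL/6J for over 6 generations and kept pathogen free, and were released from the tissue with 2 mM EDTA. All mice, controls included, carried floxed alleles of both genes (Mob1a f/f; Mob1b f/f) and were given tamoxifen at 80 mg/kg per day on 2 days at the age of 8 weeks. The WT group (2 arrays) had no Cre, and the 4day (2 arrays), 7day (2 arrays) and 10day (1 array) groups also carried Villin-creERT2, a tamoxifen-activated Cre recombinase under a promoter active in the intestinal epithelium, and are named for the days since tamoxifen. The WT samples are described as taken at 7 days, while the design text of the series names day 0, so the day of the controls is not settled, and that text names 2 different mice at each of 0, 4 and 7 days and does not cover the 10day sample. Mob1a and Mob1b are adaptors in the Hippo pathway, where they help to switch on the kinases Lats1 and Lats2.

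The respiratory chain passes electrons from NADH (complex I) and succinate (complex II) through ubiquinone, complex III and cytochrome c to oxygen at complex IV, and the proton gradient built on the way drives ATP synthesis by complex V. Each complex except complex II also holds subunits coded in mitochondrial DNA, and none of the listed mitochondrially encoded genes was measured here. Absorptive enterocytes, the most numerous cells of the small intestinal lining, are rich in mitochondria.

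Levels are log2 signals minus the 75th percentile of all non-control spots on the same array, so that a level of 0 equals that percentile, and levels of different genes are not compared because each comes from its own probe. Between 45.2% and 51.3% of the probes on an array were well above background, no spot was saturated, and with 7 arrays in all the number of arrays limits the precision. The 75th percentile of the signal lay between 314.9 and 394.7 on 6 arrays and was 545.5 on the 10day array. The median WT level was 6.75 over the measured members and -0.30 over all 24760 features tested, so the members were mostly bright probes. Mob1b was lower than in WT by 1.43 at 4 days (adjusted p = 0.191), by 1.59 at 7 days (adjusted p = 0.0136) and by 1.64 at 10 days (adjusted p = 0.00702) on the log2 scale in the limma fit, while the Mob1a probe was dim, differed by -0.27 and 0.25 at 4 and 7 days and was higher by 1.60 at 10 days (adjusted p = 0.0112). Whether either probe lies in the deleted sequence was not tested. The summed level of 12 epithelial markers stayed between 10.7 and 10.9 on all arrays. Single markers of this list moved both ways at 10 days, with differences from -2.85 to 1.72, so the sum does not show that each held its level. All arrays shared a slide, with WT and 4day on its row 1 and the later groups on row 2, so the row and the difference of 7day or 10day from WT cannot be told apart, whereas 4day minus WT and 10day minus 7day lie within a row.

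Promoter windows of 4 members are shown because they belong to Cox7a1, which fell 75.4-fold at 10 days, to Uqcrc1, called at 7 days, and to the members with the smallest p of complexes II and III in the step from 7 to 10 days (Sdhd and Uqcrh). Each is 300 bases from RefSeq on build GRCm38.p6, from 250 before to 50 after the start of the gene, written 5′ to 3′ on the strand of the gene. Capitals mark matches to the NRF1, ERR, YY1 or GABP and ETS letters given below.
Cox7a1, chr7:30183921-30184220, strand plus: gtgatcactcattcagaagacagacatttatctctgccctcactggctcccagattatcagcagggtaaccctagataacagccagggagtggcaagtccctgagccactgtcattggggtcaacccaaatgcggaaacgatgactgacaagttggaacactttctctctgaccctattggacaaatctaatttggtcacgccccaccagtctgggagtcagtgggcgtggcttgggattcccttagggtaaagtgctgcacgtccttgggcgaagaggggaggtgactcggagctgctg
Uqcrc1, chr9:108936398-108936697, strand plus: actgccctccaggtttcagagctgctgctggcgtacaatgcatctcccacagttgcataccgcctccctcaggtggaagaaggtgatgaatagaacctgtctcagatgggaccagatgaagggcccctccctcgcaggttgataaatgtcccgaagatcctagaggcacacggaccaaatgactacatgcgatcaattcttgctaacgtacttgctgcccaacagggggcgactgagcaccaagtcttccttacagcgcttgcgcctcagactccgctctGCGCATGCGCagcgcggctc
Sdhd, chr9:50603800-50604099, strand minus: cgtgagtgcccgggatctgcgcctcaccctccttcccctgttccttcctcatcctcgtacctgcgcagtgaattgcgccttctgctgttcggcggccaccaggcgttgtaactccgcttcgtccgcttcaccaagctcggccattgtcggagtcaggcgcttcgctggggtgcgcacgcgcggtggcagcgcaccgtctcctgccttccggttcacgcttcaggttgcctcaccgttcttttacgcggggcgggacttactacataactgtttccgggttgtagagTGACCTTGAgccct
Uqcrh, chr4:116075021-116075320, strand minus: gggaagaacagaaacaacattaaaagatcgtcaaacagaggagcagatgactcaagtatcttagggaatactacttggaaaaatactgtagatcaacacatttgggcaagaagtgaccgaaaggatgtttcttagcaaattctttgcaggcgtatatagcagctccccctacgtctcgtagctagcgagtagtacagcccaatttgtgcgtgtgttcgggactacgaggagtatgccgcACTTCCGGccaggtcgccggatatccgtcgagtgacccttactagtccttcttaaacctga

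Uqcrc1 holds the NRF1 letters GCGCATGCG on both strands in matches that overlap, Sdhd holds the ERR letters TCAAGGTCA on the opposite strand, and Uqcrh holds the GABP and ETS letters CCGGAAGT on the opposite strand. The Cox7a1 window holds none of the 6 motifs searched, which says only that these letters are not in this window. Windows were found for 76 of the 93 members and for 27025 genes in all, and both strands were searched. The NRF1 letters were in 10 of the 76 member windows (13.2%) and in 1.95% of all, the YY1 letters AAGATGGCG in 8 (10.5%) and 1.64%, the ERR letters in 2 (2.63%) and 0.47%, and the GABP and ETS letters in 5 (6.58%) and 4.31%. The TEAD letters GGAATG, bound by the partners of YAP and TAZ, were in 8 (10.5%) and 16.6%, and the SP letters CCGCCC in 35 (46.1%) and 38.2%. The GABP and ETS letters share the run GGAA with the TEAD letters. The median difference at 10 days was -1.38 for the 10 measured members with the NRF1 letters and -1.48 for the 64 without them. For the other motifs the medians with and without the letters were -1.41 and -1.48 for YY1, -1.84 and -1.45 for ERR (2 members with), -1.84 and -1.47 for GABP and ETS (5 members with), -1.61 and -1.45 for TEAD, and -1.30 and -1.63 for SP. A match is a description and not a binding site.

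At 4 days no member passed the test. All 89 members gave 0 calls in the limma fit, in which 0.0323% of all features were called at an adjusted p under 0.05. At an unadjusted p under 0.05, 2 members, Cox6a2 and Cox7a1, were lower, against 3.69% of all features. The median difference from WT was -0.22 on the log2 scale over the members and -0.08 over all features, and 78 of the 89 members were below 0. Both 4day arrays lay above both WT arrays for 1 member (1.12%), against 10.9% of all features. They lay below both WT arrays for 67 members (75.3%), against 26.7% of all features. That count moved with the scaling, to 41 members against 21.2% of features after quantile normalization and 58 against 21.4% when scaled to the probes detected on every array. By complex, the arrays did not overlap in this direction for 30 of 37 members of complex I, 3 of 4 of complex II, 8 of 8 of complex III, 11 of 15 of complex IV, 13 of 17 of complex V and 2 of 8 Ndufaf genes. In these bulk samples, fewer cells of a type and less RNA per cell cannot be told apart.

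**Figure D1:**
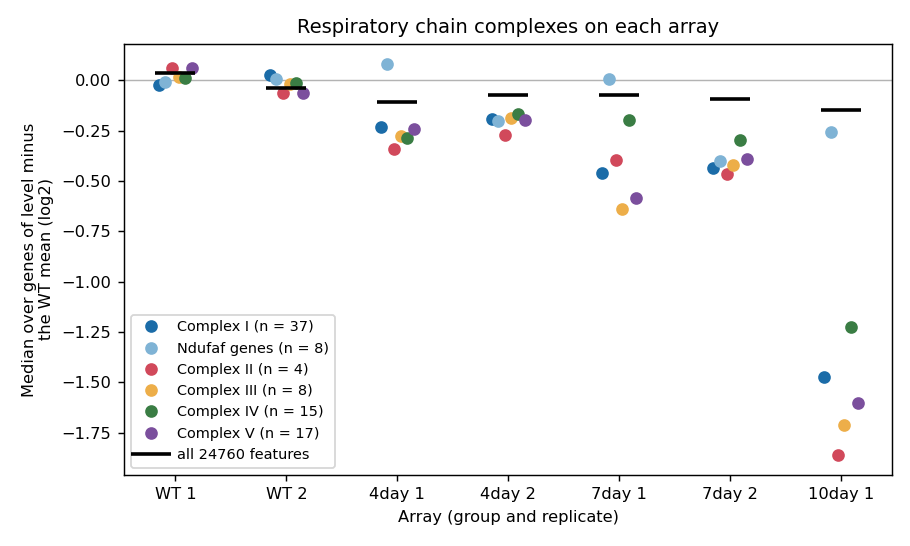
Median over the measured genes of each complex of the level minus its WT mean (vertical axis, log2), for each of the 7 arrays (horizontal axis). Points are complexes, with the Ndufaf assembly factors apart, and black dashes are the median of all 24760 features. On the 10day array the complexes lie between -1.23 and -1.86, the Ndufaf genes at -0.26 and all features at -0.15.

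At 7 days 4 members fell and none rose. Lower calls made up 4 of 89 members (4.49%), against 4.50% of all features, so the share of calls was at the background. At an unadjusted p under 0.05, 31 members were lower and none higher, against 13.8% of all features lower. The median difference from WT was -0.47 over the members and -0.08 over all features. Both 7day arrays lay below both WT arrays for 68 members (76.4%), against 32.4% of all features. They lay above both for Ndufaf5 and Ndufaf6 (2.25%), against 21.8% of all features. The medians by complex were -0.52 for complex III, -0.48 for complex V, -0.45 for complex I, -0.43 for complex II, -0.25 for complex IV and -0.20 for the Ndufaf genes. This order held under 12 of 17 settings, the main one included. Without 7day replicate 1, complex II had the lowest median and complex IV the least negative. Of 8 goblet cell markers 6 fell at 7 days, with a summed level of 11.2 on both WT arrays and 9.03 and 9.87 on the 7day arrays, and 1 of 12 enterocyte, 2 of 8 Paneth cell (median -1.04), 2 of 8 stem cell (median -0.90), 1 of 5 fibroblast and 1 of 12 epithelial markers fell. Of the T cell, myeloid and endothelial markers 1 each rose, against 2.96% of all features called higher. The summed erythroid level was 6.08 and 5.81 in WT and 0.72 and 4.57 in 7day, with no marker called. The part of these markers in the differences was not tested.

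The 4 genes called at 7 days were Cox6a2 and Cox7a1, the forms of 2 complex IV subunits that predominate in heart and skeletal muscle, Uqcrc1, a core protein of complex III, and Ndufa4, named as a complex I subunit and now known to belong to complex IV. Cox6a2 stood at -0.36 and -0.49 in WT, -1.02 and -0.98 in 4day, and -1.70 and -1.88 in 7day. Cox7a1 stood at 7.55 and 7.65 in WT, 6.82 and 7.21 in 4day, and 6.55 and 6.50 in 7day. In both genes all 4day arrays lay below all WT arrays and all 7day arrays below all 4day arrays. The difference at 7 days was -1.37 ± 0.21 (SE, 2 arrays against 2) for Cox6a2, with a limma adjusted p of 0.0173, and -1.08 ± 0.23 for Cox7a1, with a limma adjusted p of 0.0453.

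Uqcrc1 stood at 6.36 and 6.26 in WT, 6.02 and 6.12 in 4day, and 5.42 and 5.03 in 7day, a difference of -1.08 ± 0.23 at 7 days with a limma adjusted p of 0.0457. Ndufa4 stood at 6.44 and 6.34 in WT, 6.02 and 6.05 in 4day, and 5.01 and 5.43 in 7day, a difference of -1.17 ± 0.23 with a limma adjusted p of 0.0378. Again no array of a later group overlapped with an earlier one. These calls lay close to the threshold: for Cox7a1 and Uqcrc1 the limma adjusted p was 0.0740 to 0.176 and 0.0681 to 0.214 without any single WT, 4day or 7day array. Ndufa4 stayed called without 7day replicate 2 (adjusted p = 0.0368) and not without each other array (0.0876 to 0.186), and Cox6a2 was lost without WT replicate 1 (0.105), WT replicate 2 (0.0640) or 7day replicate 1 (0.0517).

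Between 4 and 7 days 0 members were called, against 1.43% of all features called lower. An unadjusted p under 0.05 was found for 5 members, of which 4 were lower, against 9.36% of all features lower. The median difference, 7day minus 4day, was -0.24 over the members and -0.01 over all features.

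At 10 days 71 of the 89 members fell (79.8%), against 17.6% of all features called lower. None rose, where 10.4% of all features were called higher. The median difference of the 10day array from WT was -1.45 over the members and -0.15 over all features. Leaving out the Ndufaf genes, 70 of 81 members fell and all 81 differences were below 0. The 10day group is 1 array, which the limma fit assumes to vary like the other groups, so this difference has no replicate check of its own. Of the 71 calls, 41 held under every alternative setting, and the number of members called lower was 51 without WT replicate 2 and 52 without WT replicate 1.

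**Figure D2:**
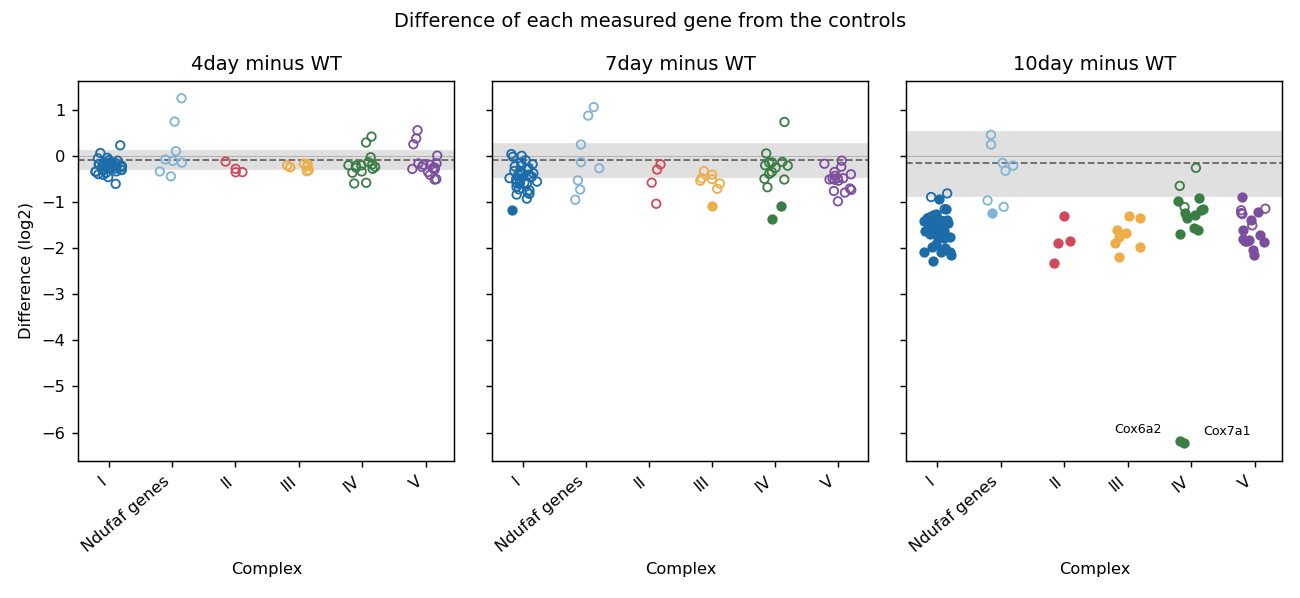
Difference from the WT mean (vertical axis, log2) of each measured gene, by complex (horizontal axis), in panels for 4, 7 and 10 days. Filled points passed an adjusted p under 0.05 and open points did not, the grey band holds the middle 50% of all features and the dashed line is their median. No point is filled at 4 days and 4 are at 7 days, and at 10 days Cox7a1 and Cox6a2 are drawn near -6, below the other members. The Cox6a2 point is a fitted value against a signal not well above background, and its supported fall is at least 4.11.

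Complex II, succinate dehydrogenase, which also works in the citric acid cycle, had the lowest median at 10 days, -1.86, and all 4 of its members fell. Sdhb, the iron-sulfur subunit, stood at 7.89 and 7.67 in WT, 7.37 and 7.49 in 4day, 6.34 and 7.16 in 7day and 5.47 in 10day. Its 10day level was 4.95-fold below WT (-2.31 ± 0.39, limma adjusted p = 0.00722). Sdhb was lower in both 7day arrays too, but these lay 0.82 apart on this probe and the difference of -1.03 did not pass the test (adjusted p = 0.117). A second, dimmer Sdhb probe stood at 5.43 and 5.41 in 7day, with a difference of -0.47 at 7 days and -2.31 at 10 days. Sdhd, a membrane anchor, stood at 7.12 and 7.23 in WT, 6.97 and 7.14 in 4day, 7.09 and 6.90 in 7day and 5.29 in 10day, so that its earlier levels lay close together and only the 10day array was far lower (3.67-fold, limma adjusted p = 0.00385). Sdhc, the other anchor, fell by 1.85 and Sdha, the flavoprotein that binds succinate, by 1.29.

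All 8 members of complex III fell, with a median of -1.71 and a range from -2.20 to -1.31. Uqcrc1 had the lowest value, at 4.11 on the 10day array (4.59-fold below WT, limma adjusted p = 0.00292). Uqcrh, the hinge protein that holds cytochrome c1, stood at 8.15 and 8.16 in WT, 7.87 and 8.04 in 4day, 7.76 and 7.75 in 7day and 6.18 in 10day, 3.92-fold below WT (limma adjusted p = 0.00276). On this brightest probe of Uqcrh the replicates agreed closely and the groups did not overlap. A second, dimmer probe stood at 7.21 and 7.39 in WT, 7.11 and 7.33 in 4day, 6.49 and 7.00 in 7day and 5.40 in 10day. Its WT and 4day arrays overlapped. Uqcrfs1, the Rieske iron-sulfur protein, fell by 1.66 and Uqcrc2, the second core protein, by 1.31.

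In complex I 34 of 37 members fell, with a median of -1.47. The 30 accessory subunits had a median of -1.48, and 29 of them fell. Ndufb10, an accessory subunit of the membrane arm, was the lowest, with levels of 7.45 and 7.20 in WT, 6.97 and 6.87 in 4day, 6.04 and 6.77 in 7day and 5.05 in 10day (4.85-fold below WT, limma adjusted p = 0.00634). Ndufa5 stood at 7.30 and 7.24 in WT, 7.12 and 7.15 in 4day, 6.54 and 6.80 in 7day and 5.12 in 10day (4.44-fold below WT, limma adjusted p = 0.00238). In both genes every later group lay below every earlier one. Ndufab1, the mitochondrial acyl carrier protein, fell by 2.08 and Ndufs8, which carries iron-sulfur clusters, by 1.75. The 3 members that were not called were Ndufs1 (-0.81, adjusted p = 0.0665), Ndufs4 (-0.89, adjusted p = 0.0561) and Ndufv2 (-1.15, adjusted p = 0.0672), named after their values were seen.

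Of the 8 Ndufaf genes, Ndufaf3 fell (-1.24 ± 0.26, limma adjusted p = 0.0156) and the other 7 were not called, with differences from -1.10 to 0.47. Their median was -0.26, the least negative of the groups under 17 of 17 settings, the main one included. Ndufaf8 stood at -1.57 and 1.06 in WT, 1.21 and 0.80 in 4day, 0.77 and 0.86 in 7day and 0.21 in 10day. WT replicate 1 was far below every other array for this gene, and the direction rests on it. Without WT replicate 1, Ndufaf8 differed by -0.24 at 7 days (limma adjusted p = 0.816) and -0.85 at 10 days (adjusted p = 0.190), and without WT replicate 2 it was called higher, at 2.38 (adjusted p = 0.0279) and 1.78 (adjusted p = 0.0264). For Ndufaf4, a second, dimmer probe gave -1.40 at 10 days where the brightest gave -0.32, the widest gap among the 23 genes with several measured probes.

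In complex V 12 of 17 members fell, with a median of -1.60. The 5 subunits of the catalytic F1 part (Atp5a1, Atp5b, Atp5c1, Atp5d and Atp5e) all fell, from -0.89 for Atp5b, the beta subunit, to -2.04 for Atp5c1, the gamma subunit of the rotor. Atp5c1 stood at 7.72 and 7.42 in WT, 7.22 and 7.24 in 4day, 7.13 and 7.06 in 7day and 5.53 in 10day (4.12-fold below WT, limma adjusted p = 0.00302), with no overlap between groups. The proton-carrying c-ring is coded by 3 genes for the same mature protein. Atp5g1 fell by 1.39 and Atp5g3 by 1.80, while Atp5g2 differed by -1.17 (adjusted p = 0.0702), with a second probe at -0.56. Atp5j, Atp5k, Atp5md and Atp5o were not called either, at -1.50, -1.14, -1.23 and -1.26.

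**Figure D3:**
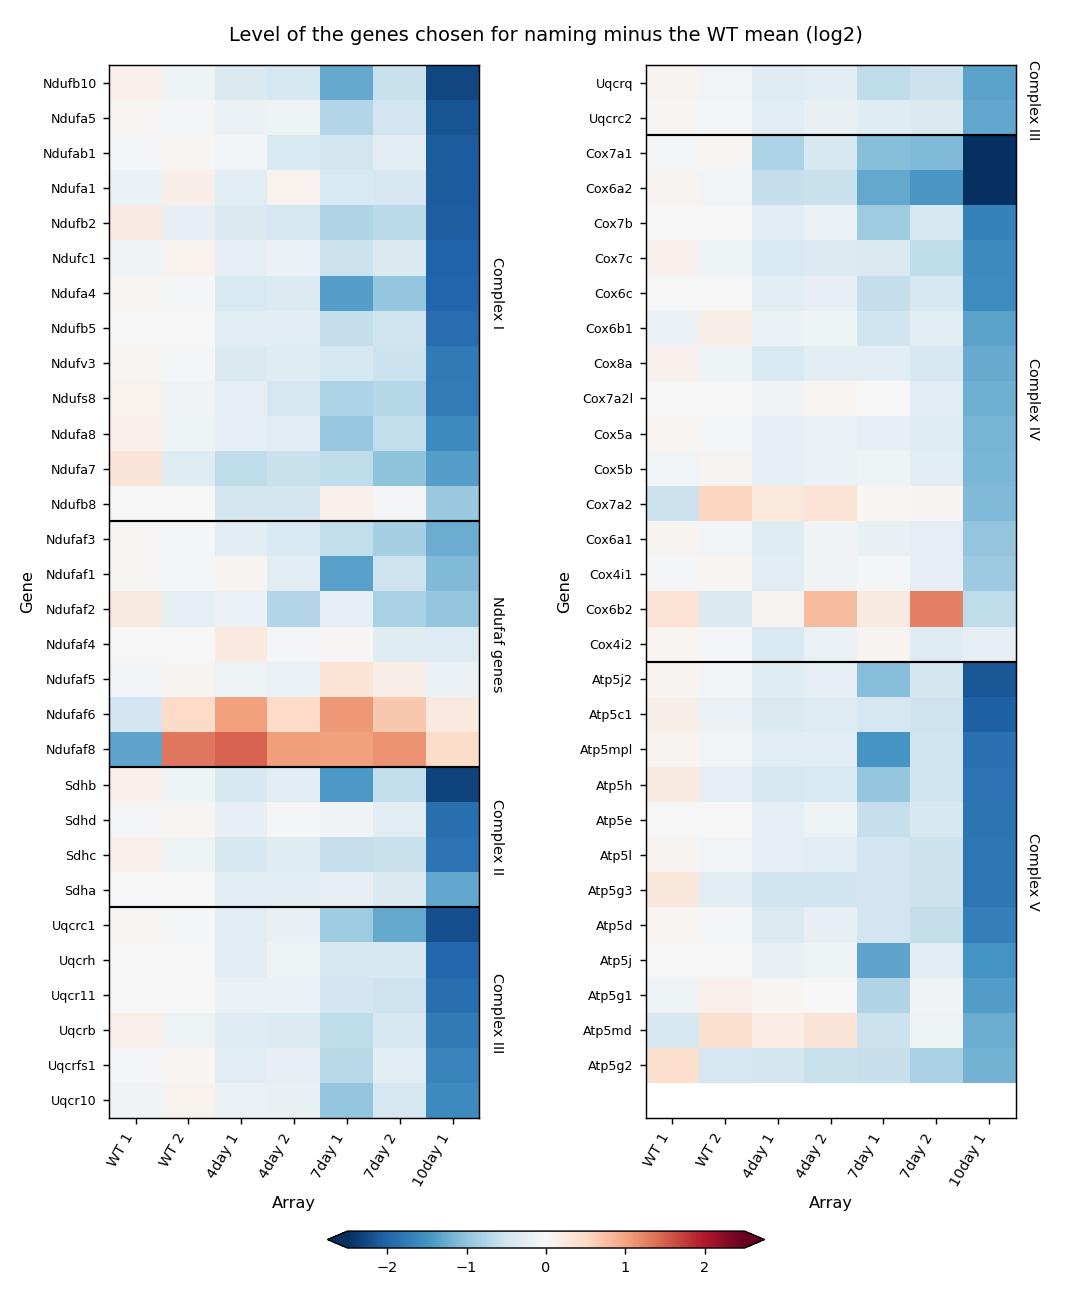
Level of each measured gene that the rule for named genes picks (rows, grouped by complex and ordered by the 10day value) minus its WT mean (colour, log2, clipped at -2.5 and 2.5) on each array (columns). The 10day column is the darkest blue for nearly all subunits, and WT 1 stands apart from WT 2 for Ndufaf8, Ndufaf6 and Cox7a2.

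In complex IV 12 of 15 members fell, with a median of -1.23. Several of its subunits have a general form and a form of muscle, testis or lung, coded by separate genes. Cox7a1 fell from 7.55 and 7.65 in WT to 1.37 on the 10day array, 75.4-fold below WT (-6.24 ± 0.28, limma adjusted p = 0.000228). Cox6a2 was not well above background on the 10day array and was at least 17.2-fold below WT and at least 6.68-fold below 7day. Differences as low as that of Cox7a1 were found for 0.638% of all features. Cox7a1 kept its call at 10 days under all 16 alternatives.

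The general forms of these subunits lay between -1.34 and -0.92 at 10 days, and the difference between forms was not tested. Cox6a1 stood at 9.79 and 9.65 in WT, 9.42 and 9.64 in 4day, 9.54 and 9.50 in 7day and 8.74 in 10day, a fall of 0.98 ± 0.26 (limma adjusted p = 0.0358). Cox7a2 stood at 5.84 and 6.92 in WT, 6.64 and 6.72 in 4day, 6.43 and 6.45 in 7day and 5.28 in 10day, a difference of -1.10 that was not called (adjusted p = 0.120) with WT arrays 1.08 apart. Cox4i1, the general form of the regulatory subunit 4, fell by 0.92 (limma adjusted p = 0.0456). The calls of Cox4i1 and Cox6a1 held under 7 of 16 alternatives each, with limma adjusted p values up to 0.285. The lung form Cox4i2 differed by -0.25 (adjusted p = 0.559) and the testis form Cox6b2 by -0.64 (adjusted p = 0.441), against a fall of 1.34 for Cox6b1 (limma adjusted p = 0.0156). Of the other subunits, Cox5a fell by 1.16, Cox5b by 1.14, Cox8a by 1.27 and Cox7a2l, which helps to join complexes III and IV, by 1.23.

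**Figure D4:**
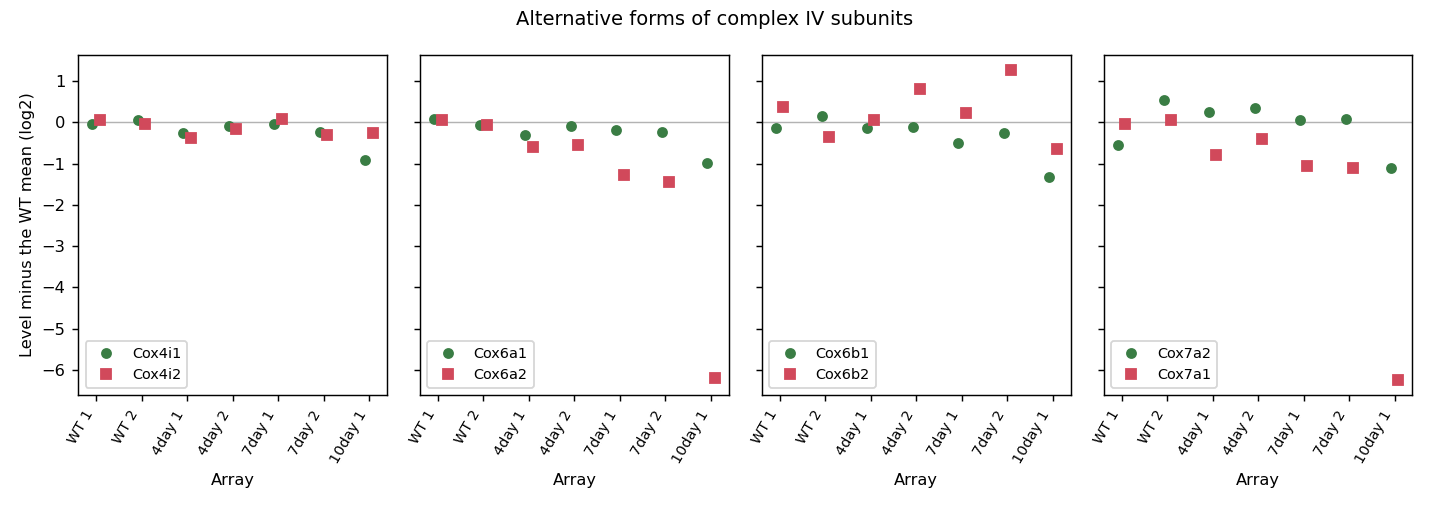
Level minus the WT mean (vertical axis, log2) on each array (horizontal axis) for 4 pairs of complex IV genes that code for alternative forms of a subunit. Green circles are the general forms and red squares the muscle (Cox6a2, Cox7a1), lung (Cox4i2) or testis (Cox6b2) forms. Cox7a1 and Cox6a2 step down at 4, 7 and 10 days, and the Cox6a2 value at 10 days is a signal not well above background.

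Most muscle markers were at background in these samples. Of 12 smooth and striated muscle markers, 7 were well above background on no array (Actc1, Actg2, Ckm, Cnn1, Des, Lmod1 and Myh11) and 3 were measured, of which Acta1 fell at 10 days. The summed level of the list lay between 1.60 and 2.13 on 6 arrays and was 0.44 on the 10day array. The part of these markers in the result was not tested.

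Markers of the cells in the isolate moved at 10 days as well, when 17.6% of all features were called lower and 10.4% higher. Of 12 enterocyte markers 11 fell, and their summed level was 11.1 to 11.7 on the first 6 arrays and 8.86 on the 10day array. All 8 goblet cell markers fell (summed level 11.2 and 11.2 in WT, 6.54 in 10day), as did 6 of 8 Paneth cell markers (10.4 and 10.0 in WT, 6.09 in 10day) and 9 of 10 T cell markers (7.82 and 7.64 in WT, 3.87 in 10day). Of 8 myeloid markers 4 rose, with a summed level of 5.25 and 5.30 in WT and 8.14 in 10day. Of the stem cell markers 5 of 8 fell, of the endothelial markers 1 of 4 rose, and of the fibroblast (5), B and plasma cell (6) and erythroid (4) markers none was called. In the epithelial list, Cdh1 and Krt18 rose and Vil1 and Cdx1 fell. The part of these changes in the fall of the respiratory chain genes was not tested.

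From 7 to 10 days, a step within 1 row of the slide, 40 of 89 members fell (44.9%), against 10.7% of all features called lower. None rose, where 7.2% of all features were called higher. The median of 10day minus 7day was -1.03 over the members and -0.08 over all features. Sdhd fell by 1.70 (limma adjusted p = 0.00842), Uqcrh by 1.57 (adjusted p = 0.00932) and Ndufab1 by 1.71 (adjusted p = 0.00962), and Cox7a1 was 35.7-fold lower. The count was smaller without single arrays, at 18 members without either 4day array, 23 without either WT array, 24 without 7day replicate 2 and 30 without 7day replicate 1, and it was 2 when only the 7day and 10day arrays entered the fit.

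Genes around the respiratory chain were followed in lists, beside 17.6% of all features called lower and 10.4% called higher at 10 days. Of 13 citric acid cycle genes 9 fell at 10 days (median -1.50), among them Idh3g, a subunit of isocitrate dehydrogenase (-1.67, limma adjusted p = 0.00492), and Fh1, fumarase (-1.50, adjusted p = 0.0113). Of 12 genes of pyruvate dehydrogenase, its kinases and the pyruvate carrier, 7 fell and 1 rose (median -1.63). Mpc2, part of the carrier, fell by 1.58 and Pdp1, a phosphatase that activates the enzyme, rose by 2.62. Of 12 genes of coenzyme Q synthesis 7 fell and none rose (median -1.20). Coq10a stood at 0.85 and 0.78 in WT, 0.47 and 0.99 in 4day, -0.94 and -0.29 in 7day and -1.49 in 10day and was called at 7 days too (limma adjusted p = 0.0472). Coq4 fell by 1.89 at 10 days.

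Among 35 assembly factors outside the prefixes 16 fell and 1 rose at 10 days (median -1.11), where 17.6% of all features were called lower and 10.4% higher. Sco2, which delivers copper to complex IV, stood at 5.57 and 5.53 in WT, 4.97 and 5.27 in 4day, 3.30 and 3.81 in 7day and 2.19 in 10day. It fell by 2.00 at 7 days (limma adjusted p = 0.0113) and by 3.36 at 10 days (adjusted p = 0.00104), with no overlap between groups. Uqcc3, an assembly factor of complex III, fell by 1.66 at 10 days. Cyc1, the cytochrome c1 subunit of complex III that lies outside the prefixes, fell by 1.71 (limma adjusted p = 0.00654), while Hccs, the heme lyase, differed by -0.74 (adjusted p = 0.377).

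Of 19 genes of mitochondrial import and chaperones 2 fell and none rose at 10 days (median -0.52), a share below the 17.6% of all features called lower, among them Trap1 (-1.24), and Clpp differed by -0.47 (adjusted p = 0.300). Of 11 carriers and uncoupling proteins 4 fell and 1, the carnitine carrier Slc25a20, rose by 1.64, and Slc25a4, an ATP and ADP carrier, differed by 0.33 (adjusted p = 0.408). The 1 of 11 carriers called higher was near the 10.4% of all features called higher. Of 15 regulators of mitochondrial biogenesis 3 fell and none rose (median -0.14), a share of lower calls near that of all features. Esrrg, an oestrogen-related receptor that binds the ERR motif, stood at -1.15 and -1.30 in WT, -1.45 and -2.19 in 4day, and -3.25 and -2.94 in 7day and was lower at 7 days by 1.87 (limma adjusted p = 0.0203). On the 10day array it was not well above background and at least 9.87-fold below WT. The other 2, Ppargc1a (-2.39) and Esrra (-1.34), were named after their values were seen, and Tfb1m was at 0.03.

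The 17 glycolysis genes differed both ways at 10 days, from -3.21 to 4.74, with a median of -0.08. Aldoc, an aldolase, was called at 7 days as well (-2.60, limma adjusted p = 0.00789) and Pfkm fell by 1.93 at 10 days. Hk1 and Hk2, which phosphorylate glucose, rose by 4.19 and 4.74 and Slc2a1, a glucose transporter, by 4.09, all named after their values were seen. At 7 days the lists gave 4 calls in all, each lower, where 4.50% of all features were called lower. They were Sco2 of 35 assembly factors, Coq10a of 12 coenzyme Q genes, Esrrg of 15 regulators and Aldoc of 17 glycolysis genes. None was called among 13 citric acid cycle genes, 12 of pyruvate dehydrogenase, 11 carriers, 19 import genes and 3 of cytochrome c and its lyases. The calls are given for single genes and not as a result for the lists.

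**Figure D5:**
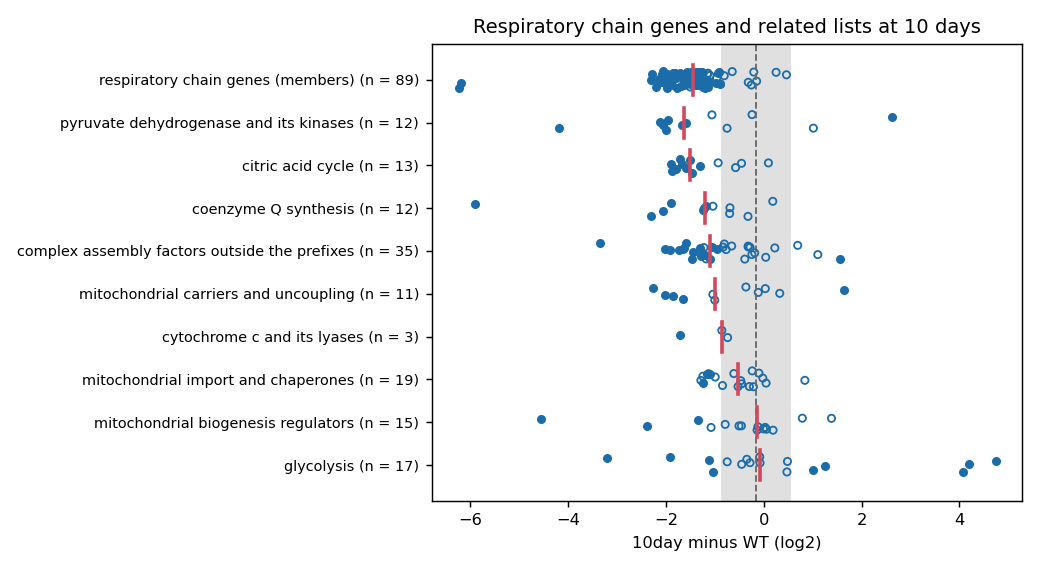
Difference of the 10day array from WT (horizontal axis, log2) for the respiratory chain genes and the genes of 9 related lists (rows, ordered by median). Filled points passed an adjusted p under 0.05, red bars are medians, the grey band holds the middle 50% of all features and the dashed line is their median. Genes of pyruvate dehydrogenase and the citric acid cycle have medians of -1.63 and -1.50, and the biogenesis regulators and glycolysis lie at -0.14 and -0.08.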

How the data were processed

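RNA was hybridised to 1-colour (Cy3) Agilent arrays, 1 per mouse sample. The intensity values were deposited by the authors as the output of the scanner software, Agilent Feature Extraction, in version 11.5.1.1 (array design 028005, genome build label mm9, per the file headers), background-subtracted and not scaled between arrays. Values in the series' own deposited matrix were within 0.1% of them for 100% of the probes that had 1 spot. The files used here name no genes, so accessions were named through RefSeq (GRCm38.p6), which gave 27509 of 55681 probes a symbol. Control and outlier spots were left out, repeated spots of the same probe were averaged as log2 values, and each array's 75th percentile was subtracted. Probes well above background on fewer than 2 arrays were left out, and a gene kept its brightest probe, leaving 24760 features. limma 3.58.1 (R 4.3.3) was fitted to the 7 arrays together with a mean for each group, and 2-sided p-values were adjusted by Benjamini-Hochberg across the features. The method was tested on simulated data. Members and lists were chosen with earlier results of these data known. Named members were every Sdh gene, the listed isoform sets, the 4 members of each complex with the smallest p in each comparison, and other genes were Mob1a, Mob1b and the 2 of each pathway list with the smallest p at 7 days. Normexp used the median signals and median backgrounds of the spots. Alternatives changed the scaling, background correction, filter, probe choice, block and arrays. For genes at background in a group, the fold is a bound against the lowest signal well above background there. Replicates may share technical spread, which the p-values then measure. 1 member on the array is not reported by name here.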

Additional observations from a re-analysis of the deposited data

Results flagged for a closer look

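Genes in which the difference between the 10day array and the 7day arrays itself passed the limma test stood out, that is, the difference from WT was not the same at both times. The values that follow are 10day minus 7day on the log2 scale, among the genes named in the report or by its rule. Coq8a and Pdk2 were added to these after their values were seen. In complex I these were Ndufa1 (-1.68), Ndufa5 (-1.55), Ndufab1 (-1.71), Ndufb2 (-1.35), Ndufb5 (-1.35), Ndufb8 (-0.98), Ndufc1 (-1.55), Ndufs8 (-1.01), Ndufv3 (-1.29). In complex II they were Sdha (-1.0005), Sdhc (-1.28), Sdhd (-1.70). In complex III they were Uqcr11 (-1.38), Uqcrb (-1.23), Uqcrc1 (-1.11), Uqcrc2 (-0.98), Uqcrfs1 (-1.18), Uqcrh (-1.57). In complex IV they were Cox6a2 (-4.82), Cox6c (-1.07), Cox7a1 (-5.16), Cox7a2l (-1.09), Cox7c (-1.09), of which Cox6a2 is a fitted value against a signal not well above background. In complex V they were Atp5c1 (-1.57), Atp5d (-1.18), Atp5e (-1.35), Atp5g3 (-1.29), Atp5j2 (-1.38), Atp5l (-1.30).

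Among the other genes, lower on the 10day array were Coq4 (-1.03), Coq8a (-4.25), Cyc1 (-1.34), Esrrg (-2.69), Idh3g (-1.05), Pdk2 (-3.76), Ppargc1a (-2.64), Sco2 (-1.36), and higher were Hk1 (3.60), Hk2 (4.87), Slc2a1 (2.89). Coq8a and Esrrg were not well above background on the 10day array, so their values are fitted and not bounds. The 10day group is 1 array, and whether a second animal would show these values was not tested.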

How the results depend on the processing

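The median over all members kept its sign in every comparison under the alternatives run, and no member was called at 4 days when single arrays were left out. Under quantile normalization the median difference over members was -0.092 at 4 days, -0.22 at 7 days, -1.10 at 10 days, -0.16 for 7day minus 4day and -0.82 for 10day minus 7day, with 1 member called lower at 7 days and 26 for 10day minus 7day. Under median scaling the median was -1.63 at 10 days and -1.21 for 10day minus 7day, with 2 members lower at 7 days and 27 features called at 4 days. Scaling to the probes well above background on all arrays gave -1.22 at 10 days and -0.85 for 10day minus 7day, with 24 members lower there, 2 at 7 days and 4 features called at 4 days. Normexp gave medians of -0.32 at 4 days and -0.94 for 10day minus 7day and 2 members lower at 7 days. These scalings moved the median of all features at 10 days from -0.15 to between -0.33 and 0.08, and the members' median lay below it by 1.05 under quantile normalization and 1.30 under median scaling. Without the filter on dim probes 22 members were lower for 10day minus 7day and 1 at 7 days, and 2, 913 and 116 features were called at 4 days, at 7 days and for 7day minus 4day. When probes had to exceed background on every array, 24 features were called at 4 days. With only the 2 groups compared, 1 member was lower at 7 days and 2 for 10day minus 7day, and 3, 1067, 407 and 2473 features were called at 4 days, at 7 days, for 7day minus 4day and for 10day minus 7day. Leaving out 1 array gave 0 to 8 members lower at 7 days, 51 to 74 at 10 days and 18 to 30 for 10day minus 7day, and 0 to 1 higher at 7 and at 10 days. The medians then ranged from -0.24 to -0.19 at 4 days, -0.48 to -0.41 at 7 days, -1.52 to -1.45 at 10 days, -0.27 to -0.20 for 7day minus 4day and -1.08 to -0.98 for 10day minus 7day, and the features called from 1 to 8, 522 to 2071, 4578 to 7481, 0 to 1097 and 3242 to 3912. The deviations of same-numbered arrays had correlations of 0.0083 (WT and 4day), 0.0858 (WT and 7day) and 0.2504 (4day and 7day). Whether such arrays share more than a number was not tested. The replicate block gave 1 member lower at 7 days, 67 at 10 days and 24 for 10day minus 7day. With this block, 2 features were called at 4 days. Apart from the filters and left-out arrays, which change what is tested, the cause was not tested. Of the calls, 41 of 71 at 10 days and 2 of 40 for 10day minus 7day held under every alternative.

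The sign of 54 differences of named members turned under at least 1 alternative, in 88 cases in all, and in 0 of these was the difference called, either as reported or under the alternative. When scaled to the probes above background on every array it turned at 4 days for Cox7a2l (0.033), at 10 days for Ndufaf5 (0.083), in 7day minus 4day for Cox5b (-0.0013), in 10day minus 7day for Cox4i2 (0.054) and Ndufaf1 (0.027). Under median scaling it turned at 4 days for Cox7a2l (0.036), in 7day minus 4day for Cox4i1 (-0.015) and Cox5b (-0.048). Under quantile normalization it turned at 4 days for Cox7a2l (0.083), Ndufa1 (0.036), Ndufa5 (0.0079) and Sdhd (0.019), at 7 days for Cox4i1 (0.11), Cox5a (0.030), Cox5b (0.070), Cox6a1 (0.029), Cox7a2l (0.078) and Sdhd (0.088), in 7day minus 4day for Atp5g3 (0.11), Cox5a (0.062), Cox6a1 (0.034), Cox8a (0.076), Sdha (0.071), Sdhd (0.070) and Uqcrc2 (0.050). Under normexp background correction it turned at 4 days for Atp5g3 (0.26), Cox7c (0.013), Ndufa1 (0.34), Ndufa7 (0.13), Ndufaf4 (-0.090), Ndufb2 (0.10), Ndufv3 (0.042), Uqcr11 (0.40) and Uqcrb (0.14), at 7 days for Atp5g1 (0.12), Atp5g3 (0.16) and Uqcr11 (0.068), in 7day minus 4day for Cox5a (0.15), Cox5b (-0.25), Cox8a (0.076), Ndufab1 (0.0018) and Sdha (0.089). With the mean of the probes of a gene it turned at 4 days for Cox7a2l (0.017) and Ndufaf4 (-0.038). When 1 array was left out, the values that turned ranged at 4 days from -0.12 to 0.14 for Atp5g1, from -0.14 to 0.66 for Atp5md, from -0.27 to 0.016 for Cox6b1, from -0.24 to 0.84 for Cox7a2, from -0.094 to 0.050 for Cox7a2l, from -0.26 to 0.095 for Ndufa1, from -0.27 to 0.065 for Ndufaf1, from -0.020 to 0.24 for Ndufaf4 and from -0.053 to 2.57 for Ndufaf8. Likewise they ranged at 7 days from -0.74 to 0.061 for Atp5md, from -0.32 to 0.073 for Cox4i2, from -0.48 to 0.60 for Cox7a2, from -0.28 to 0.012 for Cox7a2l, from -0.30 to 0.036 for Ndufaf4, from -0.24 to 2.38 for Ndufaf8 and from -0.034 to 0.13 for Ndufb8. Likewise they ranged at 10 days from -0.22 to 0.72 for Ndufaf6 and from -0.85 to 1.78 for Ndufaf8. Likewise they ranged for 7day minus 4day from -0.037 to 0.023 for Atp5g3, from -0.059 to 0.14 for Cox4i1, from -0.048 to 0.35 for Cox4i2, from -0.053 to 0.069 for Cox5b, from -0.12 to 0.10 for Cox6a1, from -0.20 to 0.84 for Cox6b2, from -0.26 to 0.034 for Cox7a2l, from -0.079 to 0.057 for Cox8a, from -0.30 to 0.0079 for Ndufab1, from -0.38 to 0.21 for Ndufaf2, from -0.14 to 0.40 for Ndufaf6, from -0.40 to 0.017 for Ndufaf8, from -0.10 to 0.066 for Sdha and from -0.15 to 0.034 for Sdhd. Likewise they ranged for 10day minus 7day from -0.33 to 0.068 for Cox4i2 and from -0.58 to 0.26 for Ndufaf1.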

Other observations

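On their brightest probe, some members differed between the replicates of a group by more than 0.8 on the log2 scale. In WT, replicate 1 lay below replicate 2 by that much for Atp5k, Atp5md, Atp5o, Cox7a2, Ndufaf6, Ndufaf8 and Ndufv2, 7.87% of the members against 6.53% of all features, and replicate 2 was the lower for Atp5g2. In 7day, replicate 1 was the lower for Atp5j, Atp5k, Atp5mpl, Atp5o, Cox6b2, Ndufaf1 and Sdhb, 7.87% against 10.6% of all features. Second probes did not always share these gaps. They read 6.46 and 6.81 for Atp5g2 in WT, and 6.56 and 6.51 for Atp5k and 5.43 and 5.41 for Sdhb in 7day. In 4day no member differed so far. The median gap between replicates was 0.13 in WT, 0.08 in 4day and 0.20 in 7day over the members, and 0.24, 0.28 and 0.35 over all features.

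Among the 23 members with several measured probes, the probes had the same sign for 18 at 4 days, 22 at 7 days, with Atp5k the exception, and 23 at 10 days.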
